A study of Arabidopsis thaliana with 8 samples.

Results

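The YABBY genes are a small family of plant transcription factors. The 6 that *Arabidopsis thaliana* carries were followed here through flower buds of histone demethylase mutants and their wild type. The members are FIL (AT2G45190), YAB2 (AT1G08465), YAB3 (AT4G00180), YAB5 (AT2G26580), CRC (AT1G69180) and INO (AT1G23420). These genes were listed by locus, and the choice was made with earlier results of these data known. They are 6 of the 25738 genes listed in any library, and all 6 were among the 19939 genes with enough counts to be tested.

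Buds of floral stages 9 to 13 were sequenced from *elf6*, *jmj13*, *ref6* and Col-0, with 2 libraries for each of the 4 genotypes and 8 libraries in all. Col-0 is the wild-type accession, and every mutant is a T-DNA insertion line in the Col-0 background. The disrupted genes ELF6, JMJ13 and REF6 encode enzymes that take methyl groups off H3K27me3, the histone mark of Polycomb silencing. The study asked how these enzymes act on floral organ growth and self-pollination, and the comparisons below ask how the YABBY transcripts stood in each mutant.

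The labels name no allele. The methods give GABI_113B06 for *jmj13* and *ref6-1* for *ref6*, an insertion said to disrupt the zinc fingers while the catalytic region stays intact. For *elf6* the methods give *elf6-3* and the names deposited with the data give *elf6-1*, so the allele is not settled. Each mutant genotype is 1 insertion line. Whether the 2 libraries of a genotype came from separate plants is not stated, so p-values measure only the spread between these libraries, which may be technical.

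YABBY proteins carry a zinc finger near one end and an HMG-like YABBY domain near the other, and they act in complexes with the corepressor LUG and its partner SEU. In leaves and floral organs they are known for expression on the abaxial side, the side that faces away from the axis. FIL, YAB2, YAB3 and YAB5 work together in the growth of leaves and other lateral organs, whereas CRC belongs to the carpel and the nectary and INO to the outer integument, the outer coat of the ovule.

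The members are related in sequence, which bears on whether reads can be told apart. Below is a stretch of 40 bases from the YABBY domain in all 6 genes, read 5′ to 3′ along each gene's own strand from the RefSeq TAIR10.1 genome. Capitals mark the 22 bases that are identical in every member, and each stretch lies within 1 exon.
FIL, chr2:18629139-18629178, minus strand: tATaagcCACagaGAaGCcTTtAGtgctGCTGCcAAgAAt
YAB3, chr4:73448-73487, minus strand: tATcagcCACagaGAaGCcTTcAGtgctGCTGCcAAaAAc
YAB2, chr1:2678715-2678754, plus strand: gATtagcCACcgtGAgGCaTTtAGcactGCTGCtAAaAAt
YAB5, chr2:11304551-11304590, minus strand: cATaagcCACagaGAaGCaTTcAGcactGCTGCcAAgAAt
CRC, chr1:26007999-26008038, minus strand: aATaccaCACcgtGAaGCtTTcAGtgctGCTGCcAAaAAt
INO, chr1:8318309-8318348, plus strand: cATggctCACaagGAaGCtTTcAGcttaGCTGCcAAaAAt

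Over this stretch FIL differed from YAB3 at 4 bases, whereas INO differed from the other 5 members at 11 to 15 bases. Over the whole coding sequence the closest pair was also FIL and YAB3, with 74.5% identity over 584 aligned nt. The most distant pair was YAB5 and INO, at 61.6%. No pair of transcripts shared an identical run longer than 20 nt, the longest being between YAB3 and CRC. The expected count of every member was a whole number in all 8 libraries.

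In the same build FIL lay on chromosome 2 at 18628252-18630779 with 7 exons, and YAB5 on the same chromosome at 11303455-11307010 with 8 exons. YAB3 lay on chromosome 4 at 72545-75576 with 6 exons. Chromosome 1 held YAB2 at 2675813-2679824 with 6 exons, CRC at 26007350-26009141 with 7 exons and INO at 8317297-8319491 with 7 exons. CRC alone overlapped another gene, AT1G69170 on the other strand, by 19 nt. Use of strand in the counting is not given in the sources used here. AT1G69170 itself had 36 to 105 counts per library, against 715 to 1290 for CRC.

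REF6 recognises a short DNA word through its zinc fingers, so the windows around the gene starts were searched for it. The words were CTCTGCTC, CTCTGCTT, CTCTGTTC and CTCTGTTT on both strands, from 1000 nt before to 2000 nt after each annotated gene start. At least 1 word was found in 63.0% of the windows of 27441 protein-coding genes. FIL, YAB2, YAB5 and INO had none, which says only that these letters are not in those windows. YAB3 had 1, in an intron, and CRC had 1, in an exon. Both are shown along the gene's strand, with the reverse complement of the word in capitals.
YAB3, word at chr4:74641-74648: tttcataaaaaAAACAGAGagtaataatta
CRC, word at chr1:26008220-26008227: ctcctgagaagAAGCAGAGgctcccatctg

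Depth was nearly even, with 11373306 to 12048319 expected counts assigned to genes per library. *ref6* replicate 1 and Col-0 replicate 1 stood apart from the other 6 libraries. Their 50 most abundant genes took 30.5% and 29.3% of the counts, against 18.4% to 21.4% elsewhere, and their TMM scaling factors were 0.742 and 0.739, against 1.012 to 1.218. TPM, used here for levels, is the authors' FPKM brought to the same sum in every library and does not remove this difference, whereas the edgeR fold changes use TMM and do. The median tested gene had a log2 fold change of 0.34 in *elf6* and 0.48 in *jmj13* against Col-0 with library size alone, and of 0.03 and 0.04 with TMM. A TPM difference and a fold change of the same gene can therefore differ in size or sign. ELF6 had 18 and 28 counts in *elf6*, against 68 and 88 in Col-0. The whole-gene counts of JMJ13 were 45 and 45 in *jmj13* (22 and 51 in Col-0) and those of REF6 were 130 and 119 in *ref6* (90 and 103 in Col-0), so they check the label of *elf6* only. AP3, a petal and stamen identity gene, had 31.7 to 53.8 TPM in every library.

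The 6 genes fell into 3 levels. CRC averaged 103.2 TPM over the 8 libraries, FIL 87.9 TPM and YAB3 66.9 TPM. YAB2 followed with 20.5 TPM, and YAB5 with 4.41 TPM and INO with 3.35 TPM came last. The median tested gene averaged 7.6 TPM. These are length-corrected levels in whole buds, in which fewer cells of a type and less RNA per cell cannot be told apart.

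The members also differed in how far they ranged. INO's highest library had 11.3 times the TPM of its lowest. For the other 5 members this ratio lay between 1.55 in YAB3 and 2.14 in YAB5, and for the median tested gene it was 2.88. After TMM scaling, the highest genotype mean of INO was 7.04 times the lowest, against 1.15 to 1.83 times in the other members and 1.55 times in the median tested gene.

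**Figure D1:**
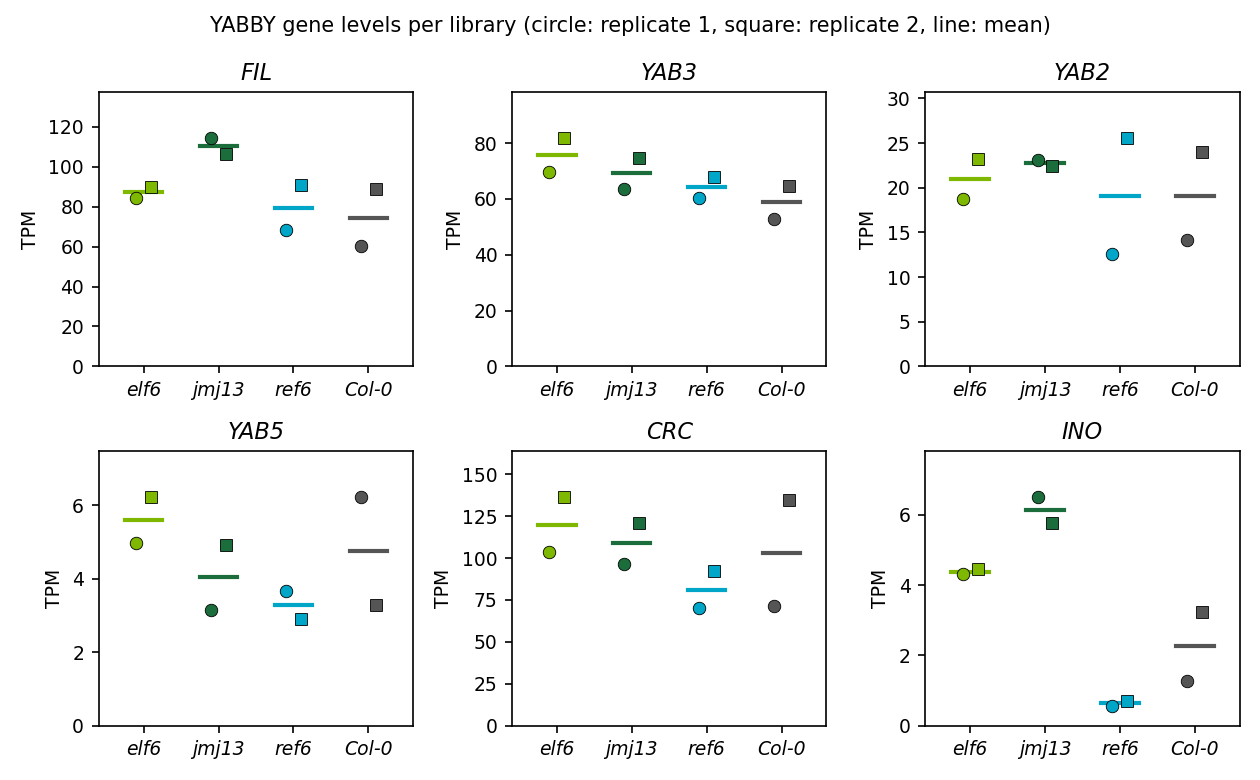
Level of each YABBY gene in TPM (y axis, linear from 0, own scale per panel) in the 2 libraries of *elf6*, *jmj13*, *ref6* and Col-0 (x axis), with circles for replicate 1, squares for replicate 2 and a line at the mean. INO spans 0.574 to 6.51 TPM with the *ref6* libraries lowest, whereas YAB3 stays between 52.9 and 81.9 TPM.

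INO, the ovule coat gene, had 49 and 50 counts in *elf6*, 72 and 63 in *jmj13*, 7 and 8 in *ref6*, and 16 and 36 in Col-0. Both *ref6* libraries lay below every other library, and both *elf6* and both *jmj13* libraries lay above Col-0. The 2 Col-0 libraries were themselves 2.55-fold apart in TPM, the widest gap within a genotype for any member.

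In TPM, INO stood at 4.32 and 4.45 in *elf6*, 6.51 and 5.76 in *jmj13*, 0.574 and 0.689 in *ref6*, and 1.27 and 3.25 in Col-0. The genotype means were 6.14 ± 0.528 TPM in *jmj13*, 4.39 ± 0.093 TPM in *elf6*, 0.631 ± 0.0818 TPM in *ref6* and 2.26 ± 1.4 TPM in Col-0 (SD, n = 2 each). No library of one genotype overlapped a library of another, so the order was *jmj13*, *elf6*, Col-0 and *ref6*.

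Counting error alone is wide at these counts. Exact Poisson 95% intervals were 2.81 to 14.4 counts for *ref6* replicate 1 and 3.45 to 15.8 for replicate 2, against 9.15 to 26.0 for Col-0 replicate 1 and 25.2 to 49.8 for replicate 2. Both *ref6* intervals thus met that of Col-0 replicate 1 and not that of Col-0 replicate 2. These intervals cover counting error only.

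**Figure D2:**
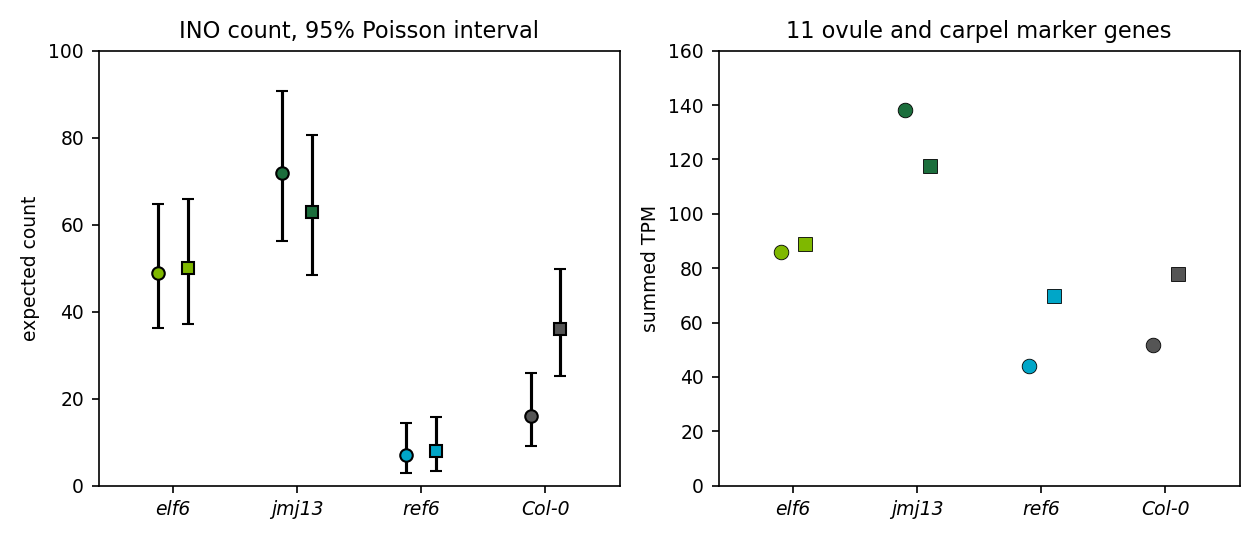
Left, INO expected counts (y axis) per library of *elf6*, *jmj13*, *ref6* and Col-0 (x axis), with exact Poisson 95% intervals as bars. Right, summed TPM of 11 ovule and carpel marker genes in the same libraries, with circles for replicate 1 and squares for replicate 2 in both panels. INO is at 7 and 8 counts in *ref6*, against 16 and 36 in Col-0, whereas the marker sums of *ref6* (44.1 and 69.6 TPM) overlap those of Col-0 (51.6 and 77.7 TPM).

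Against Col-0, INO had a log2 fold change of -1.83 ± 0.473 (SE) in *ref6*. It was under 0.05 by the edgeR quasi-likelihood test before adjustment. The adjusted p, by Benjamini-Hochberg over all tested genes, was 0.827 and lay between 0.322 and 1.0 in the 18 alternatives. The change was therefore not significant across the transcriptome. Without Col-0 replicate 1 and *ref6* replicate 1, which leaves 1 library in each genotype compared, the log2 fold change was -2.31.

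In *jmj13*, INO had a log2 fold change of 0.99 ± 0.394 (SE) against Col-0, with an adjusted p of 0.425 by edgeR that lay between 0.121 and 0.979 in the alternatives. In *elf6* the log2 fold change was 0.65 ± 0.397 (SE), with an adjusted p of 0.532 by edgeR and a range of 0.204 to 0.948. Both values leaned on the scaling and on Col-0. With library size alone, which keeps the shift of the median tested gene given above, they were 1.39 in *jmj13* and 0.93 in *elf6*. Without Col-0 replicate 1 they were 0.67 in *jmj13* and 0.34 in *elf6*, and without Col-0 replicate 2 they were 1.42 and 1.09. *elf6* against *jmj13* gave -0.34 ± 0.377 (SE), with an adjusted p of 0.963 by edgeR.

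The widest gaps in INO were between mutants, and this pair of comparisons was added after the values had been seen. *elf6* against *ref6* gave a log2 fold change of 2.48 ± 0.458 (SE), with an adjusted p of 0.0609 by edgeR. *jmj13* against *ref6* gave 2.82 ± 0.454 (SE), with an adjusted p of 0.0928 by edgeR. Neither passed. INO was the one member under 0.05 before adjustment in each, a level reached by 11.7% and 8.97% of all tested genes, and the share of DEGs was 0.266% and 0.0301%. Its libraries were apart in both, as were 41.7% and 52.3% of all tested genes in TPM and 45.4% and 41.7% after TMM scaling.

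Both of these comparisons passed under DESeq2's test, with adjusted p = 0.00441 for *elf6* and 0.00142 for *jmj13* against *ref6*. Without Col-0 replicate 1 and *ref6* replicate 1 the edgeR values were 2.66 and 2.97. That fit leaves *ref6* with 1 library, in which INO had 8 counts, so the spread within *ref6* is not measured there. Over the 18 alternatives the adjusted p ranged from 0.00441 to 0.379 and from 0.00142 to 0.823. The call on INO between the mutants thus depended on the test and on the libraries included.

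Markers of the ovule and carpel, a wider set of tissues than the outer integument, varied along with INO in part. Of the list of 11 ovule and carpel markers all were detected in every library, and their summed level was 86.1 and 88.9 TPM in *elf6*, 138.2 and 117.7 TPM in *jmj13*, 44.1 and 69.6 TPM in *ref6*, and 51.6 and 77.7 TPM in Col-0. *jmj13* was highest for the sum as for INO, whereas *ref6* and Col-0 overlapped for the sum and not for INO. The part of these tissues in the INO values was not tested.

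INO was also set against that sum within each library. It equalled 5.02% and 5.01% of the marker sum in *elf6*, 4.71% and 4.89% in *jmj13*, 1.3% and 0.99% in *ref6*, and 2.46% and 4.18% in Col-0. The *ref6* libraries were the lowest by this measure too, and those of *elf6* and *jmj13* lay close together above Col-0. The measure leans on the most abundant markers, ALC and ANT, which had 38.0 and 33.8 of the 138.2 TPM in *jmj13* replicate 1. INO was not set against single markers.

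None of the 11 markers was a DEG, meaning an adjusted p under 0.05 and at least a 2-fold change by edgeR, in any of the 6 comparisons. Their median log2 fold change against Col-0 was 0.02 in *elf6*, 0.34 in *jmj13* and -0.12 in *ref6*, beside 0.03, 0.04 and -0.02 over all tested genes. STK, which specifies ovule identity, had 9.3 and 6.3 TPM in *elf6*, 18.2 and 11.1 TPM in *jmj13*, 2.11 and 4.14 TPM in *ref6*, and 4.1 and 6.79 TPM in Col-0. Its log2 fold changes of 0.93 ± 0.329 (SE) in *jmj13* and -0.89 ± 0.35 (SE) in *ref6* did not pass, with adjusted p = 0.414 and 0.999 by edgeR.

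The markers were also read where INO had its widest gaps. Against *ref6*, 3 of the 11 were higher and 1 lower in *elf6* at an unadjusted p under 0.05, and 5 were higher and 0 lower in *jmj13*, where 11.7% and 8.97% of all tested genes were under that level in either direction. Their median log2 fold change was 0.12 in *elf6* and 0.46 in *jmj13* against *ref6*, beside 0.01 and 0.04 over all tested genes. STK had 1.07 ± 0.346 (SE) in *elf6* and 1.82 ± 0.344 in *jmj13*, with adjusted p = 0.27 and 0.156 by edgeR. In *ref6* against Col-0, 2 of the 11 were lower and 0 higher at that level, beside 4.67% of all tested genes in either direction. These were STK and SHP1, a carpel and ovule identity gene named here after its values were seen. SHP1 had a log2 fold change of -0.79 ± 0.281 (SE), with an adjusted p of 0.999 by edgeR, and -0.02 ± 0.272 (SE) in *jmj13* against Col-0. Of the 11 markers 4 were positive and 7 negative in *ref6* against Col-0. STK aside, the markers of highest mean TPM were ALC, ANT and SPT. They had -0.45 ± 0.301, 0.15 ± 0.247 and 0.01 ± 0.348 (SE) in *ref6* against Col-0.

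Regulators known to act around INO in the ovule were taken as a list of 4, of which BEL1 and ANT also stand among the 11 markers. SUP, which limits where INO is expressed, had 0.904 and 0.922 TPM in *elf6*, 1.49 and 1.04 TPM in *jmj13*, 0.422 and 1.16 TPM in *ref6*, and 0.824 and 2.14 TPM in Col-0. These levels overlapped between every mutant and Col-0. ANT, an organ and integument growth factor, had 18.2 and 17.4 TPM in *elf6*, 33.8 and 27.9 TPM in *jmj13*, 11.5 and 15.9 TPM in *ref6*, and 7.98 and 16.3 TPM in Col-0. It was highest in *jmj13*, at a log2 fold change of 0.89 ± 0.247 (SE) against Col-0 and an adjusted p of 0.331 by edgeR. BEL1, a homeodomain factor of the integuments, stayed between 1.3 and 3.11 TPM and SPL, needed for spore mother cells, between 1.28 and 4.68 TPM. None of the 4 was a DEG in any comparison.

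CRC, which shapes the carpel and is needed for nectaries, had 103.3 and 136.4 TPM in *elf6*, 96.7 and 120.9 TPM in *jmj13*, 69.9 and 92.4 TPM in *ref6*, and 71.5 and 134.5 TPM in Col-0. The 2 Col-0 libraries enclosed all but 2 of the mutant libraries, *elf6* replicate 2 above and *ref6* replicate 1 below. Its counts were 987 and 1290 in *elf6*, 901 and 1113 in *jmj13*, 715 and 898 in *ref6*, and 755 and 1256 in Col-0.

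The log2 fold changes of CRC against Col-0 were -0.11 ± 0.272 (SE) in *elf6*, -0.39 ± 0.273 in *jmj13* and -0.37 ± 0.273 in *ref6*. The adjusted p by edgeR was 0.903, 0.569 and 0.999. *elf6* against *jmj13* gave 0.28 ± 0.272 (SE) and an adjusted p of 0.949. After TMM scaling both *jmj13* and both *ref6* libraries lay below both Col-0 libraries, which was not so in TPM.

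CRC and INO are the flower-specific members, and their ratio differed between the genotypes. CRC had 23.9 and 30.6 times the TPM of INO in *elf6*, 14.9 and 21.0 times in *jmj13*, 121.8 and 134.0 times in *ref6*, and 56.2 and 41.5 times in Col-0. The genotypes did not overlap in this ratio, in the order *ref6*, Col-0, *elf6* and *jmj13*. INO alone gave the same order reversed, also without overlap. Over the 8 libraries the TPM of INO ranged 11.3-fold and that of CRC 1.95-fold, so the ratio mostly restates INO. How often other pairs of genes are apart in this way was not counted.

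Nectary markers varied between libraries as well. The summed level of 4 nectary genes was 59.4 and 73.7 TPM in *elf6*, 38.3 and 46.7 TPM in *jmj13*, 15.1 and 48.9 TPM in *ref6*, and 30.7 and 85.7 TPM in Col-0, with none of them at 0 in any library. In TPM the lowest sum and the lowest CRC level fell in the same library, *ref6* replicate 1, which stood apart in composition. This did not hold for CRC after TMM scaling. Its lowest scaled value was then 64.7 in *jmj13* replicate 1, against 80.8 in *ref6* replicate 1. The sum was taken in TPM only, and the part of this tissue in the CRC values was not tested. CWINV4, a nectary cell wall invertase, had 13.9 and 13.3 TPM in *elf6*, 8.38 and 6.86 TPM in *jmj13*, 4.46 and 8.57 TPM in *ref6*, and 8.81 and 15.0 TPM in Col-0. Its log2 fold change of -1.13 ± 0.243 (SE) in *jmj13* against Col-0 had an adjusted p of 0.252 by edgeR. The 4 nectary genes were split in that comparison, with 2 negative and 2 positive, BOP1 at 0.59 ± 0.763 and BOP2 at 0.31 ± 0.433 (SE). At an unadjusted p under 0.05 by edgeR 1 was lower and 0 higher, beside 11.2% of all tested genes in either direction.

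Among 8 regulators and targets of CRC in the carpel, no DEG was found in any comparison. AG, the carpel and stamen identity gene that acts upstream of CRC, had 32.7 and 28.4 TPM in *elf6*, 21.5 and 20.3 TPM in *jmj13*, 5.92 and 14.8 TPM in *ref6*, and 11.3 and 14.5 TPM in Col-0. Both *elf6* libraries were above all others, and 50.1% of all tested genes were apart in TPM in *elf6* against Col-0. The log2 fold change of AG in that comparison was 0.87 ± 0.273 (SE), with an adjusted p of 0.246 by edgeR. The list mostly went the other way there, with 2 genes positive, 6 negative and a median of -0.25. At an unadjusted p under 0.05 by edgeR 1 was higher and 2 were lower, beside 12.4% of all tested genes in either direction. TRN2, known as a gene that CRC represses, stayed between 36.1 and 53.5 TPM.

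FIL, the founding abaxial member, had 84.5 and 90.0 TPM in *elf6*, 114.5 and 106.6 TPM in *jmj13*, 68.2 and 90.6 TPM in *ref6*, and 60.1 and 88.7 TPM in Col-0. Both *jmj13* libraries were above all others, and *elf6*, *ref6* and Col-0 overlapped. The excess in *jmj13* depended on the scaling. With TMM the log2 fold change in *jmj13* against Col-0 was 0.07 ± 0.233 (SE), with an adjusted p of 0.918 by edgeR, and with library size alone it was 0.51, close to the shift of the median tested gene given above.

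YAB3, the closest relative of FIL and partly redundant with it, had 69.8 and 81.9 TPM in *elf6*, 63.6 and 74.6 TPM in *jmj13*, 60.3 and 67.9 TPM in *ref6*, and 52.9 and 64.6 TPM in Col-0. In TPM both *elf6* libraries lay above both Col-0 libraries, and the other mutants overlapped Col-0. The log2 fold changes against Col-0 were -0.02 ± 0.268 (SE) in *elf6*, -0.29 ± 0.268 in *jmj13* and 0.06 ± 0.268 in *ref6*. The adjusted p by edgeR was 0.988, 0.656 and 0.999.

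FIL exceeded YAB3 in every library. The ratio of their TPM was 1.21 and 1.1 in *elf6*, 1.8 and 1.43 in *jmj13*, 1.13 and 1.33 in *ref6*, and 1.14 and 1.37 in Col-0. The *jmj13* libraries had the 2 highest ratios, with replicate 2 only slightly above Col-0 replicate 2.

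YAB2, which acts with FIL and YAB3 in leaves, had 18.7 and 23.2 TPM in *elf6*, 23.1 and 22.4 TPM in *jmj13*, 12.6 and 25.6 TPM in *ref6*, and 14.1 and 24.0 TPM in Col-0. Its 2 lowest values were those of *ref6* replicate 1 and Col-0 replicate 1, the libraries that stood apart, and all genotypes overlapped. Against Col-0 the log2 fold changes were -0.2 ± 0.248 (SE) in *elf6*, -0.23 ± 0.248 in *jmj13* and -0.1 ± 0.249 in *ref6*, with adjusted p = 0.771, 0.708 and 0.999 by edgeR.

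YAB5, the least abundant of the 4 leaf and organ members, had 42 and 52 counts in *elf6*, 26 and 40 in *jmj13*, 33 and 25 in *ref6*, and 58 and 27 in Col-0. Col-0 held both the highest count and one of the 3 lowest, so no mutant was apart from it. The log2 fold changes against Col-0 were -0.24 ± 0.532 (SE) in *elf6*, -0.85 ± 0.544 in *jmj13* and -0.66 ± 0.549 in *ref6*, and the adjusted p by edgeR was 0.882, 0.538 and 0.999. Without Col-0 replicate 1 they were 0.68, 0.06 and 0.26.

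Of the 6 YABBY genes, none was a DEG in *elf6* against Col-0, where 0.12% of all tested genes were. None was a DEG in *jmj13*, with 0.0% of all tested genes, none in *ref6*, with 0.00502%, and none in *elf6* against *jmj13*, with 0.772%. DESeq2 and limma on log2 FPKM also called 0 of the 6 in each of these 4 comparisons. At an unadjusted p under 0.05 edgeR had 0 members in *elf6*, 1 in *jmj13*, 1 in *ref6* and 0 in *elf6* against *jmj13*, INO in both cases. The background at that level was 12.4%, 11.2%, 4.67% and 8.78% of all tested genes. The 3 mutants were compared with the same 2 Col-0 libraries, so their values are not independent.

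**Figure D3:**
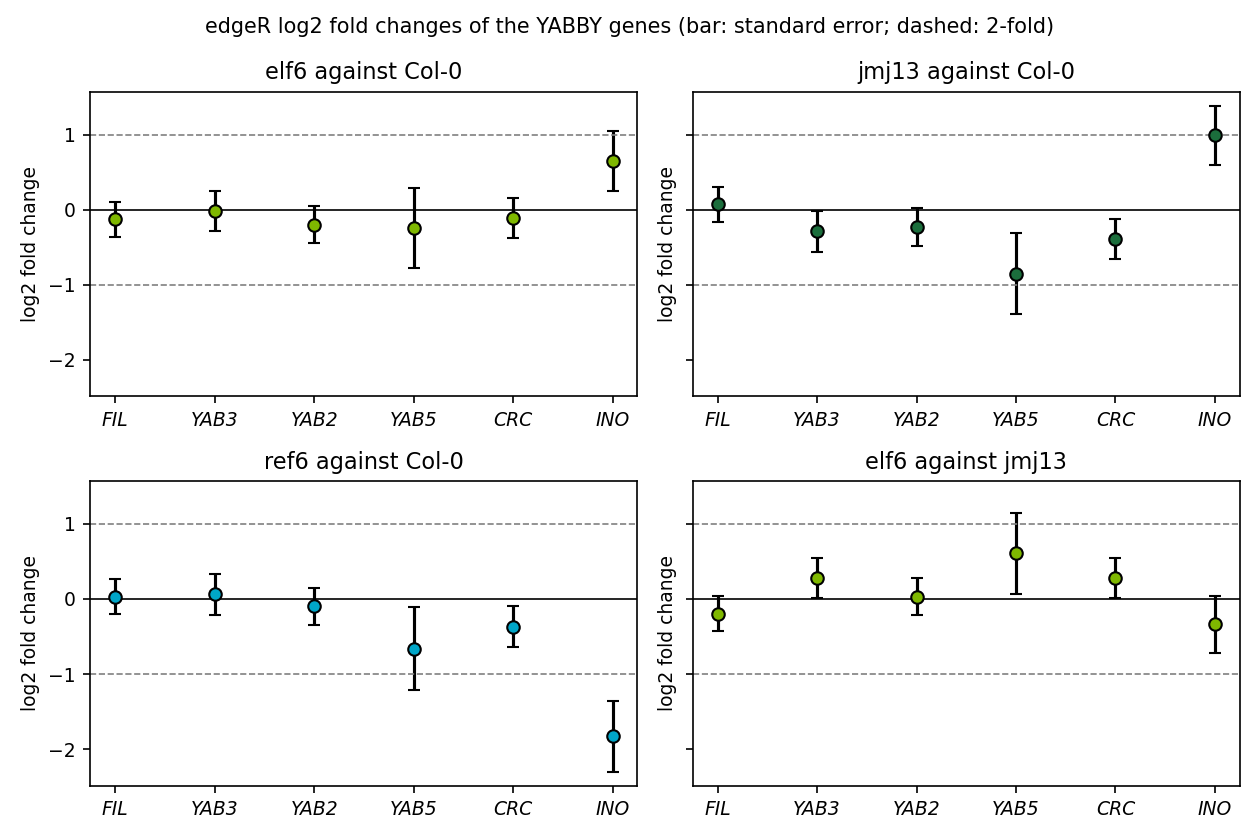
edgeR log2 fold change (y axis) of each YABBY gene (x axis) in *elf6*, *jmj13* and *ref6* against Col-0 and in *elf6* against *jmj13*, with standard errors as bars and dashed lines at a 2-fold change. INO lies farthest from 0 in each of the Col-0 panels, at 0.65, 0.99 and -1.83, and no gene passed the adjusted test in any panel.

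Libraries of the compared genotypes did not overlap in TPM for 2 members in *elf6* against Col-0 (YAB3 and INO), where 50.1% of all tested genes were apart. In *jmj13* it was 2 members (FIL and INO, background 60.9%), in *ref6* 1 member (INO, background 16.2%) and in *elf6* against *jmj13* 3 members (FIL, YAB5 and INO, background 53.0%). After TMM scaling 2, 5, 2 and 4 members were apart in the same order of comparisons, beside 44.7%, 46.2%, 26.1% and 48.1% of all tested genes. INO was apart in each of these comparisons on both scales. With 2 libraries against 2, an exact two-sided permutation test of 1 gene cannot go below p = 0.333.

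The median log2 fold change of the 6 members was -0.12 in *elf6*, -0.26 in *jmj13* and -0.24 in *ref6* against Col-0, and 0.16 in *elf6* against *jmj13*. Over all tested genes it was 0.03, 0.04, -0.02 and -0.03. Except for INO, no member differed from Col-0 by more than 0.85 on the log2 scale in any mutant, the largest value being that of YAB5 in *jmj13*.

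The summed TPM of the family was 285.6 and 342.1 in *elf6*, 307.6 and 335.1 in *jmj13*, 215.2 and 280.1 in *ref6*, and 206.2 and 318.3 in Col-0. *elf6* and *jmj13* overlapped each other, every mutant overlapped Col-0, and both *ref6* libraries lay below those of *elf6* and *jmj13*. CRC, FIL and YAB3 made up most of the sum in every library. INO took 1.51% and 1.3% of it in *elf6*, 2.12% and 1.72% in *jmj13*, 0.267% and 0.246% in *ref6*, and 0.617% and 1.02% in Col-0.

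**Figure D4:**
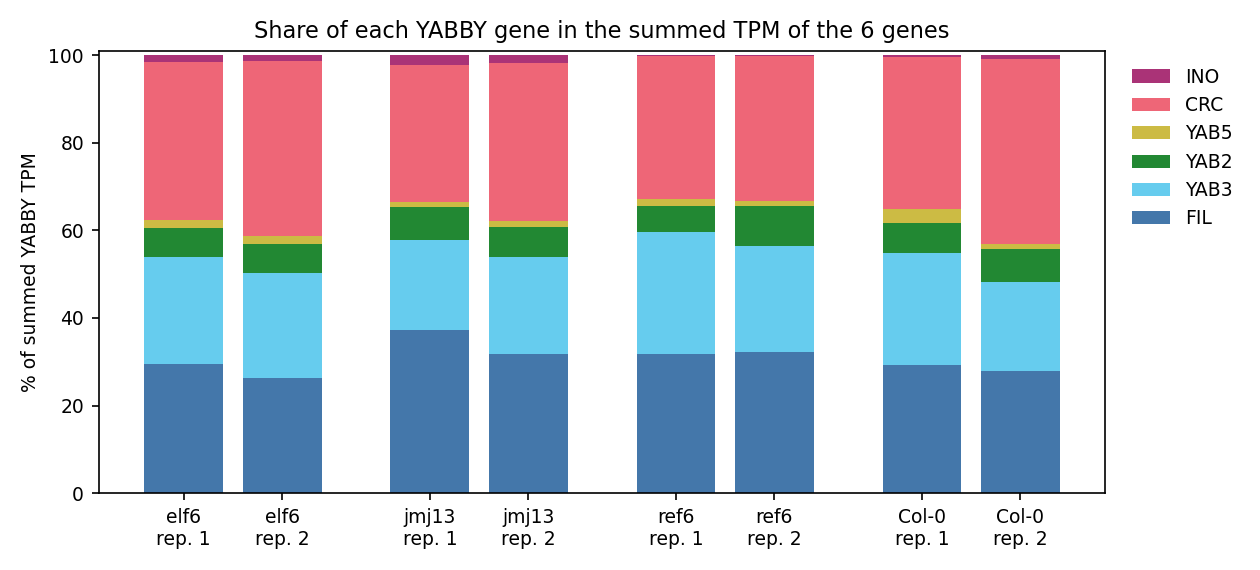
Share of each YABBY gene in the summed TPM of the 6 genes (y axis, percent) in each library of *elf6*, *jmj13*, *ref6* and Col-0 (x axis). CRC, FIL and YAB3 fill most of every bar, and INO, at the top, takes 0.246% to 0.267% in *ref6*, against 0.617% to 1.02% in Col-0.

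The partners of the YABBY genes in organ polarity were read from lists of named genes. Of 6 abaxial KANADI and ARF genes, 7 adaxial HD-ZIP III and AS genes, 5 corepressors and 4 KNOX genes, none was a DEG in any comparison by edgeR. At an unadjusted p under 0.05, *elf6* against Col-0 had 2 abaxial genes and 1 adaxial gene lower and 1 corepressor higher, and *jmj13* against Col-0 had 1 adaxial gene higher and 1 lower. The *ref6* comparison had none in these 4 lists, and *elf6* against *jmj13* had 1 abaxial gene and 3 adaxial genes lower. Over all tested genes 12.4%, 11.2%, 4.67% and 8.78% were under that level in *elf6*, *jmj13* and *ref6* against Col-0 and in *elf6* against *jmj13*.

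ETT, an auxin response factor that works with the KANADI proteins, had 54.3 and 62.1 TPM in *elf6*, 93.3 and 105.3 TPM in *jmj13*, 93.4 and 92.7 TPM in *ref6*, and 69.7 and 82.3 TPM in Col-0. *elf6* was below every other genotype, with a log2 fold change of -0.78 ± 0.295 (SE) against Col-0 and an adjusted p of 0.331 by edgeR. In TPM 50.1% of all tested genes were apart in *elf6* against Col-0. AS1, which keeps KNOX genes off in organs, had 25.1 and 23.2 TPM in *elf6*, 51.6 and 46.8 TPM in *jmj13*, 21.6 and 35.4 TPM in *ref6*, and 15.1 and 29.7 TPM in Col-0. *jmj13* was above every other genotype, with a log2 fold change of 0.67 ± 0.238 (SE) against Col-0 and an adjusted p of 0.414 by edgeR. In TPM 60.9% of all tested genes were apart in that comparison. AS2, of the same list, went the other way there, at -1.32 ± 0.353 (SE) and an adjusted p of 0.315 by edgeR. Of the 7 adaxial genes 6 were positive and 1 negative.

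The corepressor LUG had 14.6 and 13.8 TPM in *elf6*, 18.6 and 16.6 TPM in *jmj13*, 10.9 and 13.0 TPM in *ref6*, and 7.92 and 14.0 TPM in Col-0. Of the mutants, *jmj13* alone was apart from Col-0 in TPM, as were 60.9% of all tested genes, and with TMM its log2 fold change was 0.2 ± 0.241 (SE), with an adjusted p of 0.735 by edgeR. LUH, a homologue of LUG, stood at 14.5 to 24.5 TPM over the 8 libraries. The KNOX gene STM, which keeps meristem cells undifferentiated, had 42.1 and 54.9 TPM in *elf6*, 43.2 and 67.1 TPM in *jmj13*, 37.1 and 65.7 TPM in *ref6*, and 31.5 and 61.4 TPM in Col-0, and all genotypes overlapped.

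JAZ proteins repress jasmonate responses, and JAZ3 is known to bind FIL. Of the 12 JAZ genes 11 were tested. At an unadjusted p under 0.05 by edgeR, 5 were lower and 0 higher in *jmj13* against Col-0, beside 11.2% of all tested genes in either direction. JAZ7 was the one DEG, in *elf6* against *jmj13*, where 0.772% of all tested genes were DEGs. It had 104.0 and 107.4 TPM in *elf6*, against 7.52 and 15.8 TPM in *jmj13*, with 18.9 and 49.7 TPM in *ref6* and 47.9 and 26.9 TPM in Col-0. Its log2 fold change in *elf6* against *jmj13* was 3.31 ± 0.515 (SE), with an adjusted p of 0.0239 by edgeR. FIL and YAB3 had -0.2 ± 0.233 and 0.28 ± 0.268 (SE) in that comparison, with adjusted p = 0.968 and 0.949.

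For each member the genes with the most similar profile were found by Pearson's r of log2(TPM + 1) over the 8 libraries, among the genes with a mean of at least 5 TPM. INO was closest to AT5G53900 (r = 0.99) and BUG22 (r = 0.979). AT5G53900 had 6.64 and 7.11 TPM in *elf6*, 9.02 and 9.61 TPM in *jmj13*, 2.23 and 2.92 TPM in *ref6*, and 3.26 and 5.66 TPM in Col-0. It showed the same order of genotypes as INO, without overlap. Because it was picked for its likeness to INO over these same libraries, that order follows largely from the choice.

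The closest genes to FIL, YAB2 and YAB3 included several that were low in the libraries that stood apart. They were AT1G62610 (r = 0.996) and HDA05 (r = 0.994) for FIL, PYD1 (r = 0.996) and PDS1 (r = 0.995) for YAB2, and ATL5 (r = 0.975) and AT5G64880 (r = 0.972) for YAB3. For CRC they were GPAT1 (r = 0.975) and PnsB2 (r = 0.965), and for YAB5 AT2G35658 (r = 0.962) and AT4G25830 (r = 0.94). PDS1, for example, had 3.46 TPM in *ref6* replicate 1 and 4.26 TPM in Col-0 replicate 1, against 8.36 to 14.1 TPM in the other 6 libraries. All points share these 8 libraries and their composition, so the correlations are descriptions only.

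Between the members themselves r of log2(TPM + 1) was highest for FIL and YAB2, at 0.82, and lowest for FIL and YAB5, at -0.37. INO had r = 0.73 with FIL and 0.7 with CRC over the same 8 libraries.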

How the data were processed

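The authors extracted RNA from buds, enriched mRNA, sequenced single-end reads and aligned them with bowtie2 to TAIR10; the submitters' processing notes also name RSEM. The authors deposited, per library, an expected count per gene (not scaled) and FPKM (scaled for gene length and library total). Between 89.2% and 91.7% of the expected counts were whole. Genes not listed were taken as 0. Deposited gene lengths differed from RefSeq TAIR10.1 transcripts, which were used for names, positions and sequences only.

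Expected counts were rounded, filtered with filterByExpr (19939 of 25738 genes kept), scaled by TMM and fitted by genotype over all 8 libraries with edgeR 4.0.16 (R 4.3.3, functions glmQLFit and glmQLFTest). Adjustment was by Benjamini-Hochberg over all tested genes, and a DEG had an adjusted p under 0.05 and at least a 2-fold change. NOISeq, used in the study, was not run. TPM was computed from FPKM. Poisson intervals are exact, at 95%. The scripts were tested on simulated data.

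All 6 members were named, with up to 4 genes per list of the highest mean TPM, and the 2 genes most similar to each member. The members and lists were chosen with earlier results of these data known. Of 87 listed context and marker genes, 86 matched the annotation. The 18 alternatives were other scaling (DESeq2 size factors, library size), DESeq2 1.42.0, no filter, a fit of the 4 libraries compared, the replicate number as a block, limma 3.58.1 with trend on log2(FPKM + 1) and log2(FPKM + 0.1) and with a mean FPKM of at least 1, and libraries left out. The comparisons of *elf6* and *jmj13* against *ref6* were added after seeing the data.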

Additional observations from a re-analysis of the deposited data

How the results depend on the processing

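In the 4 comparisons first set, no YABBY gene was called under any of the 18 alternatives. Among the alternative values of single genes, 403 kept direction and side of the threshold, 53 changed sign and 12, all of INO against *ref6*, passed where edgeR's main test did not. INO never changed sign. Some of these 12 came from the fit without Col-0 replicate 1 and *ref6* replicate 1, which left *ref6* with 1 library. Against *ref6*, 1 YABBY gene (INO) was called in both *elf6* and *jmj13* by DESeq2, without the low-count filter and without Col-0 replicate 1 and *ref6* replicate 1, and in *elf6* also by limma on log2(FPKM + 1); leaving out 1 library gave 0 to 1, with INO called without either Col-0 replicate.

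Sign changes concerned members other than INO, YAB5 among them, whose value in *jmj13* was -0.85 with all libraries. In *elf6* against Col-0, FIL, YAB2, YAB3, YAB5 and CRC were 0.19, 0.1, 0.32, 0.16 and 0.18 with library size only, 0.2, 0.12, 0.32, 0.19 and 0.22 with limma on log2(FPKM + 1), with or without the mean FPKM minimum, and 0.21, 0.13, 0.32, 0.25 and 0.23 on log2(FPKM + 0.1). In *jmj13*, YAB2, YAB3 and CRC were 0.2, 0.17 and 0.03 with library size only, 0.22, 0.16 and 0.07 on log2(FPKM + 1), and 0.23, 0.17 and 0.07 on log2(FPKM + 0.1). YAB2 in *elf6* against *jmj13* was -0.1 in all of these. These settings leave the shift of the median gene in place. Without Col-0 replicate 1 and *ref6* replicate 1, YAB3 and YAB5 in *elf6* were 0.14 and 0.68, YAB5 in *jmj13* 0.05, and FIL and YAB3 in *ref6* -0.07 and -0.03. The cause was not tested.

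With 1 library left out, the log2 fold change in *elf6* against Col-0 ranged from -0.16 to 0.14 in YAB3, -0.83 to 0.68 in YAB5 and -0.32 to 0.08 in CRC, and in *jmj13* from -1.45 to 0.06 in YAB5. In *ref6* it ranged from -0.08 to 0.13 in FIL, -0.32 to 0.08 in YAB2, -0.18 to 0.26 in YAB3 and -1.26 to 0.26 in YAB5, and in *elf6* against *jmj13* from -0.13 to 0.18 in YAB2. INO ranged from 0.34 to 1.09 in *elf6*, 0.67 to 1.42 in *jmj13* and -2.14 to -1.39 in *ref6*. A genotype left with 1 library is assumed to vary like the others.

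The replicate number does not pair libraries by any label. Same-numbered deviations correlated at 0.088 in *elf6*, 0.015 in *jmj13* and 0.364 in *ref6* with Col-0, and at 0.268 between *elf6* and *jmj13*. With the replicate block, INO was 0.66, 1.0 and -1.82 against Col-0, none called, and 1 YABBY gene, INO, was called in *elf6* against *ref6* (adjusted p = 0.0438). DEGs over all tested genes numbered 290, 0, 2 and 287 with the block, against 24, 0, 1 and 154 without it, in *elf6*, *jmj13* and *ref6* against Col-0 and *elf6* against *jmj13*.

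In the same order, DEGs numbered 437, 264, 33 and 434 by DESeq2, 505, 235, 32 and 448 without the low-count filter, 61, 5, 0 and 727 in the 4 libraries compared, 10, 0, 0 and 32 with library size only, 58, 0, 0 and 135 by limma on log2(FPKM + 1), 31, 0, 0 and 89 with the FPKM minimum, 2, 1, 1 and 23 on log2(FPKM + 0.1), and 498, 47, 8 and 746 without Col-0 replicate 1 and *ref6* replicate 1. With 1 library left out they ranged from 0 to 231, 0 to 232, 0 to 1 and 0 to 326. In *elf6* against *ref6* the count was 53, with 23 to 449 in the other alternatives and 0 to 645 with 1 library left out, and in *jmj13* against *ref6* it was 6, with 3 to 167 and 0 to 41. Depth limits INO and YAB5 most, at 7 to 72 and 25 to 58 counts.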

Other observations

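Other tissues of the bud also varied between libraries of 1 genotype. The summed level of 9 late pollen markers was 1290.4 and 689.2 TPM in *elf6*, 2218.4 and 1194.5 TPM in *jmj13*, 1059.1 and 1144.4 TPM in *ref6*, and 1632.9 and 2598.6 TPM in Col-0. Up to 2 of these genes were at 0 in a library. For this sum both *elf6* and both *ref6* libraries were below both Col-0 libraries, whereas *jmj13* overlapped Col-0. AGP6 and AGP11 made up most of the sum in every library. Of the 7 tested markers 3 were apart from Col-0 in *elf6* and 2 in *ref6*, all lower, beside 50.1% and 16.2% of all tested genes in TPM. VGD1, with 80.6 and 308.0 TPM in Col-0, overlapped Col-0 in every mutant. AGP6, a pollen arabinogalactan protein, had 339.1 and 188.2 TPM in *elf6*, 592.0 and 345.9 TPM in *jmj13*, 287.4 and 309.3 TPM in *ref6*, and 535.8 and 713.9 TPM in Col-0. Its log2 fold change of -1.62 ± 0.375 (SE) in *elf6* against Col-0 had an adjusted p of 0.134 by edgeR.

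The tapetum, the cell layer that feeds the pollen, was followed by 11 markers. Their sum was 346.9 and 384.1 TPM in *elf6*, 320.8 and 283.3 TPM in *jmj13*, 129.6 and 438.4 TPM in *ref6*, and 260.5 and 369.9 TPM in Col-0. *ref6* held both the lowest and the highest sum. Markers of green tissue, 5 genes, summed to 36634.0 to 44212.8 TPM over the 8 libraries. No gene of these 3 lists was a DEG in any comparison by edgeR. The part of these tissues in the YABBY values was not tested.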
